A study of Mus musculus with 4 samples.

Results

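The genes described here are the variable (V) and constant segments of the T cell receptor (TCR) alpha and beta chains. A gene was a member if its Ensembl ID carried, in GENCODE M21, a symbol made of Trav or Trbv and a digit, or was Trac, Trbc1 or Trbc2. Of the 38282 IDs that the deposited tables share, 128 met this rule: 103 TRAV segments, 22 TRBV segments and 3 constant regions. GENCODE M21 annotates 119 of the V segments as genes and 6 as pseudogenes. It holds 166 genes that meet the rule, and the other 38 were not analysed here. The rule uses names and no measured value, but it was set with earlier results of these data known.

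The study measured RNA on day 4 in naive CD4+ T cells from the spleen of C57BL/6 mice, kept in Th0 culture alone (group Th0) or in Th0 culture with dopamine (group Th0+Dopa). Th0 is the usual name for T cell activation without the cytokines that steer a T helper lineage. Each group had 2 libraries, numbered 2 and 3, and the question is which genes differ when dopamine is added. The labels used here give no dose or timing of dopamine and do not say whether the libraries came from separate animals or cultures, so the p-values below reflect only how far these libraries spread, and that spread may be technical.

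An alpha beta T cell makes its receptor from one rearranged gene for each chain. In the thymus, V(D)J recombination joins one V segment to a J segment, with a D segment between them in the beta chain, and splicing then joins the V-J exon to the constant region. Each T cell clone therefore transcribes mainly one TRBV segment and one or a few TRAV segments, and the RNA of many cells gives a census of segments weighted by the RNA per cell. Trac is the only alpha constant region, while a beta chain carries Trbc1 or Trbc2 according to the D-J cluster it used. In bulk RNA, fewer cells that use a segment and less RNA per cell cannot be told apart.

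Levels are given as FPKM, which divides fragments by transcript length and by the mapped fragments of the library, so they can be compared between genes per length. The libraries numbered 2 and those numbered 3 stand in separate tables, and differences are Th0+Dopa minus Th0 within a table. FPKM summed to between 687066 and 880583 per library, and 15974 to 19177 genes were above 0, fewer in both Th0+Dopa libraries. The members made up 0.271% (library 2) and 0.260% (library 3) of all FPKM in Th0, against 0.192% and 0.204% in Th0+Dopa. A single fragment on a segment of 354 bases, the median TRAV length, was worth an estimated 0.679 to 0.881 FPKM. The 103 TRAV segments thus rest on an estimated 238 to 328 fragments per library, and the 22 TRBV segments on 962 to 1247.

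The labelled cell type was visible in its markers. Cd4 stood at 115 to 123 FPKM, Cd3g at 175 to 211 and Cd247 at 153 to 197, but Cd3e only at 7.29 to 16.2. Cd8a stayed at or under 0.853 and the B cell gene Cd79a at or under 0.342. Other markers of CD8 T cells and B cells were higher, with Cd8b1 at 3.34 to 5.98 FPKM, Cd79b at 2.205 to 4.09 and Ighm, the immunoglobulin M heavy chain, at 12.5 to 19.9. Markers of other cells moved with the treatment. In the Th0 libraries some stood above Cd4 (122 and 123 FPKM). These included Mcpt8 (142 and 187) and Prss34 (125 and 157) of the granulocyte and mast cell list, and Mmp12 (204 and 271) of the macrophage and dendritic cell list. All 8 tested granulocyte and mast cell markers fell (limma adjusted p under 0.05). So did 10 of 11 tested macrophage and dendritic cell markers, where 4.39% of all tested genes were called lower. Median differences were -3.27 and -1.95 on the log2(FPKM + 1) scale. Tested markers such as Spi1, Csf1r, Itgam, Itgax and Adgre1 were under 1 FPKM in both Th0+Dopa libraries. They reached the mean of 1 FPKM needed for testing only through Th0, so these counts and medians are a description. The 12 granulocyte and mast cell markers with a row summed to 449 and 595 FPKM in Th0 and to 50.04 and 46.7 in Th0+Dopa. The 14 macrophage and dendritic cell markers summed to 431 and 580 against 57.8 and 58.6, and no marker of either list was at 0 in all libraries. Their part in the results below was not tested.

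The alpha constant region had the lowest adjusted p of the members. Trac (chr14:54220521-54224206, plus strand, GRCm38) stood at 450 FPKM and, with dopamine, 274 in the libraries numbered 2, and at 526 and 325 in those numbered 3. Both Th0 libraries lay above both Th0+Dopa libraries. Trac fell by 0.70 ± 0.10 (standard error, SE) on the log2(FPKM + 1) scale, to 0.614 times the Th0 level (limma adjusted p = 0.0148 over 11423 tested genes, 2 libraries per group). The within-table differences were -0.72 and -0.69. Among all tested genes, 501 (4.39%) were called lower and 717 (6.28%) higher.

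The beta constant regions did not move together. Trbc1 (chr6:41538218-41539881, plus strand) stood at 146 FPKM without and 193 with dopamine in the libraries numbered 2 and at 110 and 147 in those numbered 3, higher with dopamine in both tables. Its difference of 0.41 ± 0.10 missed the threshold (limma adjusted p = 0.0566) and was 0.16 with libraries at a common sum and 0.24 with the GC and length correction. Trbc2 (chr6:41546730-41548352, plus strand) stood at 380, 349, 316 and 273 FPKM in the same order, lower with dopamine in both tables. The difference was -0.17 ± 0.10 (limma adjusted p = 0.3502). The sum of both was nearly level within a table, at 526 and 542 FPKM in the libraries numbered 2 and at 426 and 421 in those numbered 3. Trbc1 made up 27.7% and 25.7% of it in Th0 and 35.6% and 35.0% in Th0+Dopa. Trac per unit of Trbc1 plus Trbc2 was 0.856 and 1.24 in Th0 and 0.505 and 0.773 in Th0+Dopa. These ratios within a library do not depend on how libraries are scaled, and no test was made of them.

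How well reads can tell the beta constant regions apart depends on the exon. Exon 1, which encodes the immunoglobulin-like domain, differs at 1 of 375 aligned bases, exon 2 at 3 of 18 and exon 3 at 15 of 107. Both genes are shown over 60 bases of exon 1 (chr6:41538447-41538506 for Trbc1 and chr6:41546959-41547018 for Trbc2, plus strand, GRCm38, 5′ to 3′), with the base that differs in capitals, since the split between them rests on such positions.
Trbc1: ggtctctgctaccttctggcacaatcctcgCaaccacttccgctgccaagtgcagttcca
Trbc2: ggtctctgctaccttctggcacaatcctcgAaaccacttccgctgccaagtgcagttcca
Exon 3 (chr6:41539229-41539335 and chr6:41547772-41547878) holds most of the differing bases, again in capitals.
Trbc1: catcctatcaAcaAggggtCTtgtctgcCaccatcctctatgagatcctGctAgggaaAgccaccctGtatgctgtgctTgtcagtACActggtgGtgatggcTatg
Trbc2: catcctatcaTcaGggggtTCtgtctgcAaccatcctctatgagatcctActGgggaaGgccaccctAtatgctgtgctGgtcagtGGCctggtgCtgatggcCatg
Of the windows of 50 bases in the annotated transcripts, 50.8% of those of Trbc1 and 56.0% of those of Trbc2 occur in no other annotated gene, against 100% for Trac. The sources used here do not say how the counting dealt with fragments from the shared exon, and the separate levels of Trbc1 and Trbc2 are less certain than their sum.

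The summed levels of the TRAV and TRBV segments differed in direction. The TRAV segments summed to 206 FPKM without and 155 with dopamine in the libraries numbered 2, and to 221 and 154 in those numbered 3, so that both Th0+Dopa libraries were lower, by 0.41 and 0.52 on the log2 scale of the sums. The TRBV segments summed to 679, 722, 686 and 720 FPKM in the same order, log2 differences of 0.09 and 0.07, whose mean turned to -0.18 when the libraries were scaled to a common sum. Such scaling lowers nearly all genes with dopamine: the median difference of all tested genes was 0.027 as deposited and -0.20 after it. TRBV per TRAV, which no scaling of libraries changes, was 3.29 and 3.11 in Th0 and 4.67 and 4.68 in Th0+Dopa. TRAV per Trac was 0.458 and 0.419 in Th0 and 0.565 and 0.473 in Th0+Dopa. TRBV per Trbc1 plus Trbc2 was 1.29 and 1.61 in Th0 and 1.33 and 1.71 in Th0+Dopa.

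**Figure D1:**
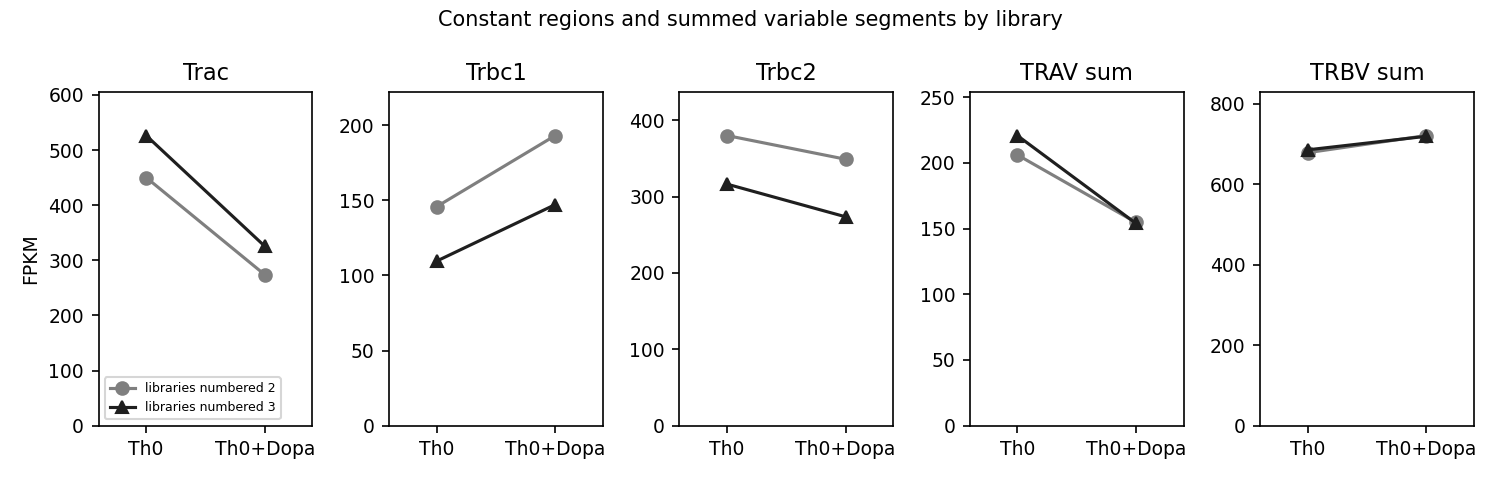
FPKM of Trac, Trbc1 and Trbc2 and the summed FPKM of the TRAV and TRBV segments in each of the 4 libraries, each panel with its own vertical axis from 0; lines join the libraries of 1 table. Trac goes from 450 to 274 and from 526 to 325 FPKM and the TRAV sum from 206 to 155 and from 221 to 154, while the TRBV sum stays between 679 and 722.

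A mean of at least 1 FPKM over the 4 libraries was needed for testing. It was met by 75 members: 52 TRAV segments, 20 TRBV segments and the 3 constant regions. Of the other 53, 28 were listed at 0 in all libraries, 27 of them TRAV segments and the other Trbv10, and 25 were above 0 in at least 1 library. The tested segments include 9 whose mean was under 1 only in Th0+Dopa and 1 whose mean was under 1 only in Th0, and 12 TRAV segments listed at 0 in at least 1 library. Counts over the tested members are therefore a description and not evidence of a direction.

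In the 75 tested members, 1 segment rose and 6 segments and Trac fell (limma adjusted p under 0.05), beside 6.28% of all tested genes called higher and 4.39% called lower. Over these 75 the median difference was -0.13, against 0.027 over all tested genes. TRAV segments had a median of -0.33 and TRBV segments one of 0.048. Lower in both tables were 21 of 52 tested TRAV segments (40.4%) and 4 of 20 TRBV segments (20%), where 32.3% of all tested genes were. Higher in both tables were 7 TRAV segments (13.5%) and 9 TRBV segments (45%), where 37.6% of all tested genes were. Without the block 1 of these 8 calls passed. That fit called 256 of all 11423 tested genes higher and 240 lower, against 717 and 501 with the block.

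**Figure D2:**
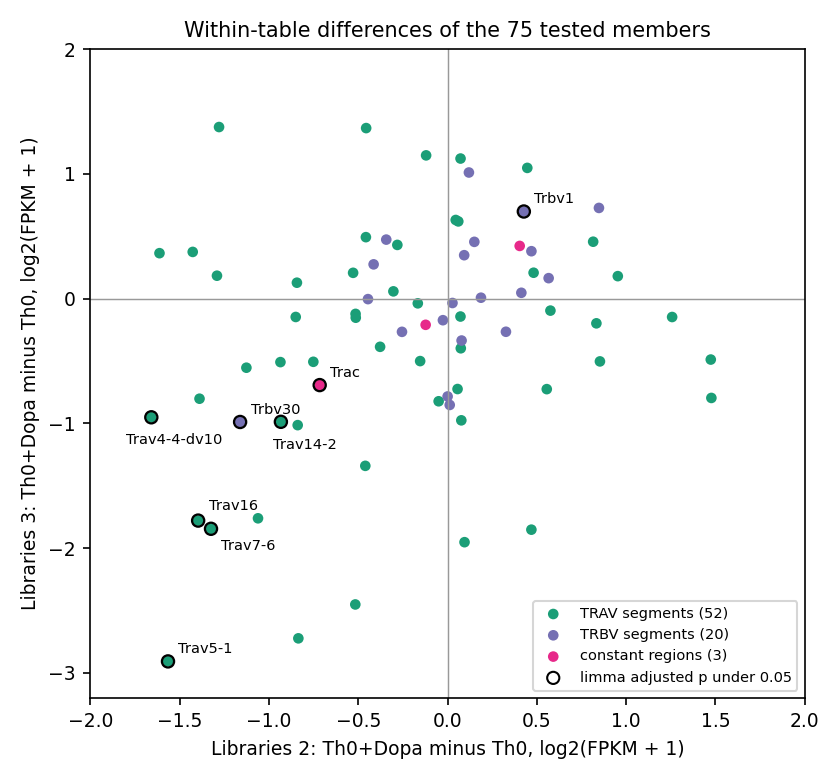
Difference on the log2(FPKM + 1) scale, Th0+Dopa minus Th0, in the libraries numbered 2 (horizontal axis) and in those numbered 3 (vertical axis) for the 75 tested members; outlined points passed limma at an adjusted p under 0.05. Of the 8 named points, 7 lie in the lower left, down to Trav5-1 at -1.57 and -2.91, and Trbv1 lies in the upper right.

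The single rise was that of Trbv1, the TRBV segment farthest from the constant regions. It stood at 36.2 and 43.4 FPKM in Th0 against 49.0 and 71.0 in Th0+Dopa, so both Th0+Dopa libraries were above both Th0 libraries. The difference was 0.56 ± 0.12 (limma adjusted p = 0.0452). It was 0.28 and no longer passed after a correction for GC content and length (adjusted p = 0.282), and 0.31 (adjusted p = 0.246) when each library was brought to the same summed FPKM. The TRBV segment that fell was Trbv30. Its levels were 6.71 and 8.87 FPKM in Th0 and 2.45 and 3.97 in Th0+Dopa, a difference of -1.08 ± 0.20 (limma adjusted p = 0.0323). Trbv30, the last TRBV segment before the D-J-C clusters, took 1.29% or less of the TRBV sum in every library.

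All 5 TRAV segments that passed were lower with dopamine. Trav4-4-dv10, whose name marks a segment that can also be joined to the delta chain, was the highest TRAV segment by mean, at 11.1 and 12.96 FPKM in Th0 and 2.83 and 6.22 in Th0+Dopa. It fell by 1.30 ± 0.23 (limma adjusted p = 0.0269). Trav14-2, the next highest, stood at 12.1 and 9.31 FPKM in Th0 and 5.86 and 4.20 in Th0+Dopa and fell by 0.96 ± 0.18 (adjusted p = 0.0296). In both segments the groups did not overlap.

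The other 3 were low. Trav7-6 stood at 5.23 and 6.68 FPKM in Th0 and 1.49 and 1.14 in Th0+Dopa and fell by 1.58 ± 0.26 (limma adjusted p = 0.0223). Trav16 stood at 3.08 and 6.13 against 0.549 and 1.08, and fell by 1.59 ± 0.28 (adjusted p = 0.0272). Its copy Trav16n went from 0.674 to 3.66 FPKM in the libraries numbered 2 and from 4.46 to 2.14 in those numbered 3. The Trav16 copies summed to 7.12 and 15.0 FPKM in Th0 and 7.14 and 6.08 in Th0+Dopa. The difference of this sum, -0.59 ± 0.30, did not pass (limma adjusted p = 0.263). Trav5-1 stood at 4.24 and 12.1 against 0.770 and 0.751, and fell by 2.24 ± 0.37 (adjusted p = 0.0223). For Trav5-1 the Th0+Dopa values are worth about 1 fragment each (0.998 and 0.974 by the estimate above) and the Th0 values 5.94 and 13.1 fragments, so the size of its difference is poorly set. Trav5-1 and Trav16 are among the 9 segments that reached the filter only through Th0, with Th0+Dopa means of 0.760 and 0.813 FPKM, and such segments had to differ to be tested. Without the filter Trav5-1 (limma adjusted p = 0.0453), Trav4-4-dv10 (adjusted p = 0.0496) and Trac (adjusted p = 0.0268) still passed. Trav16 (adjusted p = 0.0603), Trav7-6 (0.0564), Trav14-2 (0.0606), Trbv30 (0.0745) and Trbv1 (0.0647) did not. Trav5-1 has no window of 50 bases in common with another annotated gene, whereas 67.4% of the windows of Trav7-6, 54.2% of those of Trav14-2, 51.8% of those of Trav16 and 46.8% of those of Trav4-4-dv10 are its own.

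The last 60 bases of the V exon of each called segment show where the segment meets the junction. They are given 5′ to 3′ on the plus strand of GRCm38, from GENCODE M21 transcripts, with the last in-frame cysteine codon in capitals. A conserved cysteine near the end of the V exon opens the CDR3 loop, the part of the receptor that meets the peptide. Trbv1 has 2 in-frame cysteine codons in its last 30 bases, of which only the last is in capitals, and the other segments shown have 1. In Trbv1 the capitals thus need not mark the codon that opens the CDR3 loop. All 119 segments annotated as genes carry an in-frame cysteine codon in their last 30 bases. The stretches are chr14:53717232-53717291 (Trav7-6), chr14:52623023-52623082 (Trav5-1), chr14:53684118-53684177 (Trav4-4-dv10), chr14:53743646-53743705 (Trav16), chr14:53641166-53641225 (Trav14-2), chr6:41281931-41281990 (Trbv30) and chr6:40891826-40891885 (Trbv1).
Trav7-6: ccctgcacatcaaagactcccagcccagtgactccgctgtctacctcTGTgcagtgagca
Trav5-1: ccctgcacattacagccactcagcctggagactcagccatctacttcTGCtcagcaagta
Trav4-4-dv10: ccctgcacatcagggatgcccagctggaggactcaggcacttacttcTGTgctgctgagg
Trav16: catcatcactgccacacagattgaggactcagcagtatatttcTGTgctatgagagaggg
Trav14-2: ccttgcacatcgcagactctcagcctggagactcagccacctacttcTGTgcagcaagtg
Trbv30: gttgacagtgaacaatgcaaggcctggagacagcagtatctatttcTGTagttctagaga
Trbv1: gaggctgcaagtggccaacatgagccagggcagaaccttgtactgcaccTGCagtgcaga

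Trav10 lay just outside the threshold as single copies and inside it as a subgroup. Trav10 stood at 5.65 and 4.67 FPKM in Th0 and 1.54 and 2.25 in Th0+Dopa, a difference of -1.10 ± 0.27 (limma adjusted p = 0.0571). Trav10d was at 1.09 and 4.32 FPKM in Th0, listed at 0 in Th0+Dopa 2 and at 0.571 in Th0+Dopa 3 (-1.41 ± 0.36, adjusted p = 0.0658). Trav10n was at 3.53 and 5.602 FPKM in Th0, at 1.54 in Th0+Dopa 2 and listed at 0 in Th0+Dopa 3 (-1.78 ± 0.48, adjusted p = 0.0761). Trav10d and Trav10n reached the filter only through Th0, with Th0+Dopa means of 0.286 and 0.770 FPKM, and had to differ to be tested. The 3 copies summed to 10.3 and 14.6 FPKM in Th0 and 3.08 and 2.82 in Th0+Dopa. In the fit with segments summed by subgroup the Trav10 subgroup fell by 1.75 ± 0.22 (limma adjusted p = 0.0102). That fit called 1 of the 37 members and subgroups it tested higher (Trbv1) and 3 lower (Trac, Trbv30 and the Trav10 subgroup). Of all 11385 rows in the fit, 716 were called higher and 499 lower, so the counts are no result about the members.

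The sum is the safer quantity here because the copies are nearly the same sequence. Their V exons differ at 2 of 291 bases between Trav10 and Trav10d, at 5 between Trav10 and Trav10n and at 3 between Trav10d and Trav10n. All are on the plus strand of GRCm38, at chr14:53505996-53506286 (Trav10), chr14:52811206-52811496 (Trav10d) and chr14:53122320-53122610 (Trav10n), and capitals mark bases that differ from at least 1 other copy.
Trav10: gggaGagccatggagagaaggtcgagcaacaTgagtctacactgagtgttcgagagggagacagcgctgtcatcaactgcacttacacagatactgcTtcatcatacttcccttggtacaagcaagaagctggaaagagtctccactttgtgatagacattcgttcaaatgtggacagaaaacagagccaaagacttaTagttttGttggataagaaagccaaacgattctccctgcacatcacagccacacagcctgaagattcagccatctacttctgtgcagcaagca
Trav10d: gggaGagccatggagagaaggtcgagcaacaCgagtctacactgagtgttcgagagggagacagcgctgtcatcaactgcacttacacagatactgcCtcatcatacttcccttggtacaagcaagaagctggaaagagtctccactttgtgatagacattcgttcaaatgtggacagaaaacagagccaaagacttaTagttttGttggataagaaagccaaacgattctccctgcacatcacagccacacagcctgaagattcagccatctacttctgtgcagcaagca
Trav10n: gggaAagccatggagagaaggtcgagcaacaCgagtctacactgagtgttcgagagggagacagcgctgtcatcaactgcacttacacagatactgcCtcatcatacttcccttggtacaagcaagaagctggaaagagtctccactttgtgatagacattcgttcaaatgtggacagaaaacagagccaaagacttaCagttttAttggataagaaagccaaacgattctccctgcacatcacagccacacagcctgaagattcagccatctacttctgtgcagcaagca

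No other TRAV subgroup passed as a sum. Trav14, the largest, held 21.6% of the TRAV sum without and 17.7% with dopamine in the libraries numbered 2 and 13.1% and 16.4% in those numbered 3, which is lower with dopamine in one table and higher in the other. Next by mean share came Trav6 (11.6%), Trav7 (10.7%) and Trav13 (8.53%). Trav9 went against the TRAV sum, at 10.8 and 10.5 FPKM in Th0 and 16.5 and 13.4 in Th0+Dopa. Its difference of 0.45 ± 0.16 did not pass (limma adjusted p = 0.133), and its share was 5.48 and 3.98 percentage points higher with dopamine. Within it Trav9-4 had the largest positive difference among TRAV segments of the same sign in both tables, at 5.10 and 1.502 FPKM in Th0 and 7.31 and 4.18 in Th0+Dopa (0.75 ± 0.25, adjusted p = 0.124). Trav4-2 came next, at 1.88 and 1.66 against 4.07 and 2.65 FPKM (0.64 ± 0.27, adjusted p = 0.195).

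**Figure D3:**
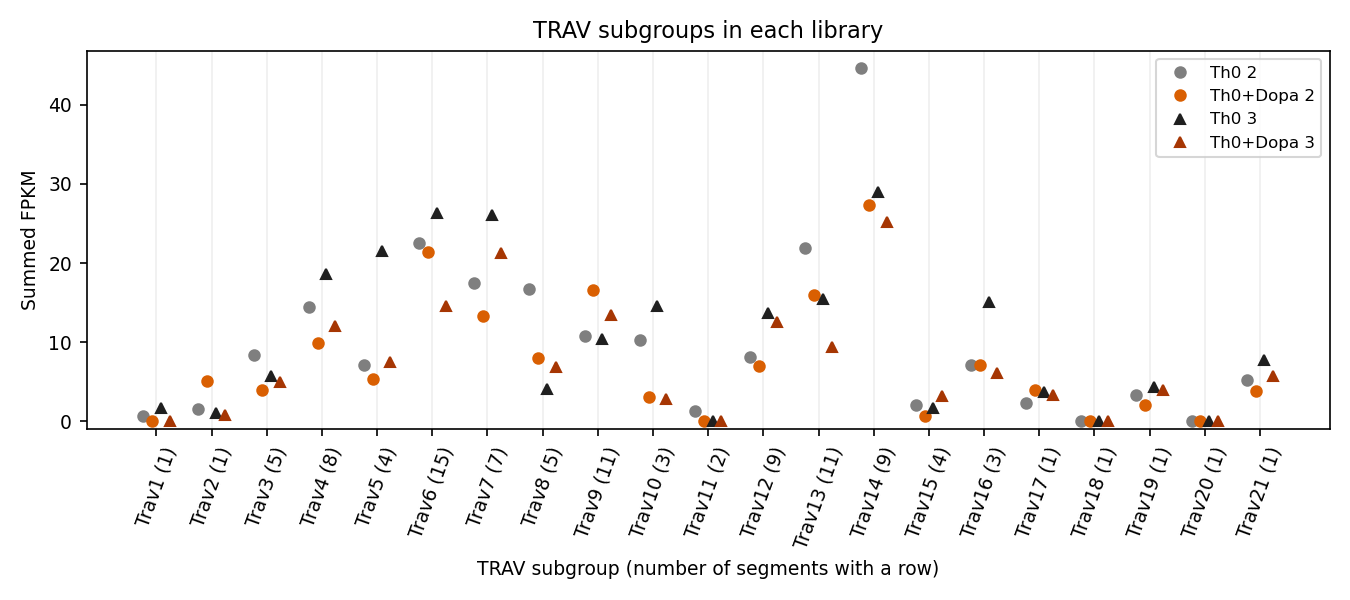
Summed FPKM of each TRAV subgroup in the 4 libraries, with the number of segments of the subgroup that have a row in parentheses. Trav14 is highest, between 25.2 and 44.6 FPKM, and the Trav10 subgroup stands at 10.3 and 14.6 FPKM in Th0 against 3.08 and 2.82 in Th0+Dopa.

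Among the 8 highest TRAV segments, 6 were not called, of which Trav13-1 stood at 7.65 and 5.05 FPKM in Th0 and 6.71 and 4.90 in Th0+Dopa (-0.10 ± 0.19, limma adjusted p = 0.775). Trav21-dv12, the segment nearest to Trac with a value, stood at 5.25 and 7.81 against 3.81 and 5.74 FPKM (-0.38 ± 0.20, adjusted p = 0.264). Trav7-4 and Trav5-4 went in opposite directions in the tables, Trav7-4 at 4.20 and 4.48 FPKM in the libraries numbered 2 and 8.68 and 6.35 in those numbered 3, and Trav5-4 at 2.84 and 4.64 and at 9.38 and 5.28. A pair of Trav14 copies was high too. Trav14n-3 stood at 12.2 and 6.65 FPKM in Th0 and 6.81 and 4.39 in Th0+Dopa (-0.63 ± 0.19, adjusted p = 0.0942), and Trav14d-3-dv8 at 10.7 and 6.03 against 3.34 and 8.12 (-0.53 ± 0.42, adjusted p = 0.467).

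Segments of the beta chain were used unevenly but alike in all libraries. Trbv13-2, known in older nomenclature as a Vbeta8 segment, was highest, at 75.1 and 63.2 FPKM in Th0 against 83.4 and 87.1 in Th0+Dopa. Over the libraries it averaged 10.98% of the TRBV sum, followed by Trbv3 (9.88%), Trbv19 (8.81%), Trbv15 (8.22%), Trbv5 (7.60%), Trbv1 (7.08%), Trbv20 (6.60%) and Trbv31 (6.05%). These 8 held 63.7% to 66.4% of the sum. An effective number of segments, the exponential of the Shannon entropy of the shares, was 15.7 to 16.1. Neighbours in this order did not keep it in every library: Trbv3 was above Trbv13-2 in Th0 3, at 79.7 against 63.2 FPKM.

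The 3 Trbv13 segments were each higher with dopamine in both tables, and none passed the test. Trbv13-1 stood at 25.8 and 37.1 FPKM in Th0 and 38.7 and 41.7 in Th0+Dopa (0.37 ± 0.14, limma adjusted p = 0.169). Trbv13-2 had a difference of 0.30 ± 0.12 (adjusted p = 0.179). Trbv13-3 stood at 28.0 and 20.8 against 39.1 and 27.4 FPKM (0.43 ± 0.12, adjusted p = 0.0880). As a subgroup they held 19.0% and 17.7% of the TRBV sum in Th0 and 22.3% and 21.7% in Th0+Dopa, and their sum differed by 0.34 ± 0.10 (adjusted p = 0.0917). The differences of Trbv13-1, Trbv13-2 and Trbv13-3 were 0.12, 0.051 and 0.18 with libraries at a common sum, and 0.16, 0.088 and 0.27 with the GC and length correction. Their V exons differ at 24 to 41 of 294 bases, and at least 99.7% of the windows of each are found in no other annotated gene, so reads can tell these segments apart.

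Most other TRBV segments differed little or unequally between the tables. Trbv3 stood at 63.8 and 79.7 FPKM in Th0 and 62.6 and 70.6 in Th0+Dopa (-0.10 ± 0.11, limma adjusted p = 0.604). Trbv15 stood at 68.6 and 56.8 against 57.3 and 47.1 FPKM, lower in both tables (-0.26 ± 0.11, adjusted p = 0.187), and Trbv19 at 46.7 and 68.1 against 62.5 and 70.4 (0.23 ± 0.13, adjusted p = 0.313). Trbv20 was level in the libraries numbered 2, at 47.8 and 48.2 FPKM, and went from 57.3 to 31.3 in those numbered 3 (-0.42 ± 0.21, adjusted p = 0.259). Trbv23, a low segment, had the largest positive difference of all members, at 2.11 and 1.86 FPKM in Th0 and 4.59 and 3.73 in Th0+Dopa (0.79 ± 0.24, adjusted p = 0.105).

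Trbv31, which lies beyond Trbc2 on the minus strand (chr6:41557691-41558452) and joins by inversion, stood at 45.0 and 42.9 FPKM in Th0 and 47.6 and 33.8 in Th0+Dopa (-0.13 ± 0.14, limma adjusted p = 0.605). Trbv12-1 lies just before Trbv13-1, and Trbv12-2 lies between Trbv13-1 and Trbv13-2. Both were lower than every Trbv13 segment in all libraries, at 2.01 to 6.56 and at 8.20 to 13.01 FPKM over the 4 libraries. Neither passed the test (adjusted p = 0.582 and 0.890). Trbv5 was between 44.3 and 65.6 FPKM, lower with dopamine in one table and higher in the other, and shares most of its windows with the annotated gene 5830405F06Rik, so that its level is uncertain. Trbv21, annotated at chr6:41202550-41203044, was listed at 0 in 3 libraries and at 1.02 FPKM in Th0+Dopa 3.

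**Figure D4:**
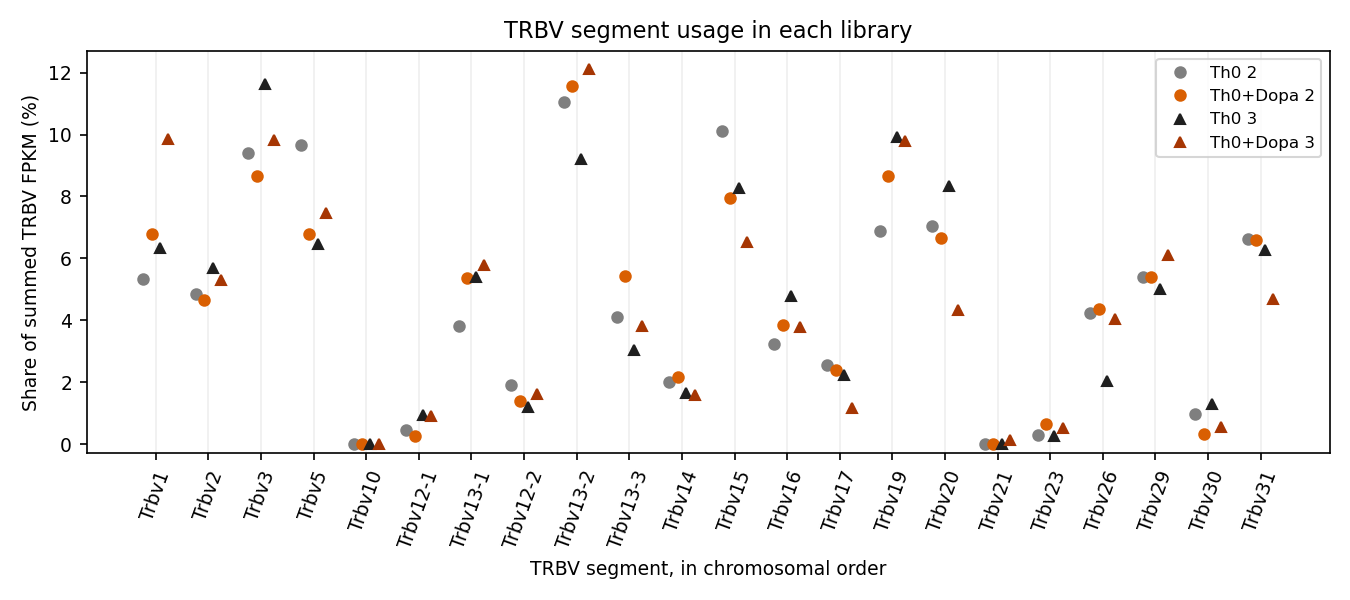
Share of the summed TRBV FPKM held by each of the 22 TRBV segments, in chromosomal order, in the 4 libraries. Trbv13-2 leads with a mean of 10.98%, Trbv1 and the Trbv13 segments are higher with dopamine in both tables, and Trbv30 goes from 0.989% and 1.29% to 0.339% and 0.552%.

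Usage profiles were compared between libraries. Over 22 TRBV segments, Pearson's r of the shares was 0.874 to 0.949 for the 6 pairs of libraries, and 7.85% to 13.4% of the usage would have to be moved from some segments to others to turn one profile into another. Over 103 TRAV segments r was 0.588 to 0.755, and 29.2% to 34.3% would have to be moved. With TRAV summed into 21 subgroups, r was 0.789 to 0.917 and 14.2% to 22.9% would have to be moved. Libraries of the same group were not closer as a rule: for TRBV the moved share was 12.3% between both Th0 libraries, 9.55% between both Th0+Dopa libraries, and 7.85% and 12.6% between Th0 and Th0+Dopa of one table. The points of such a correlation share the segments' lengths and their unique sequence, and TRAV shares rest on few fragments. Effective numbers of TRAV segments were 45.4 and 43.1 in Th0 and 47.7 and 48.5 in Th0+Dopa.

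Whether a TRAV segment had any value went with how much sequence it has to itself. In C57BL/6 the middle of the TRAV locus is repeated, and the letters d and n in a symbol mark the copies. Of the 31 TRAV segments with no window of 50 bases of their own, 21 were listed at 0 in all libraries and 1 reached a mean of 1 FPKM. Of 15 with up to 25% of such windows, 4 were at 0 and 5 reached 1 FPKM. Of 40 with 25% to 75%, 0 were at 0 and 33 reached 1 FPKM, and of 17 above 75%, 2 were at 0 and 13 reached 1 FPKM. Segments with the letter d numbered 32, of which 12 were at 0, those with n 25, of which 12 were at 0, and those with neither 46, of which 3 were at 0.

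An example is Trav12d-1, at 0.491 FPKM in Th0 2 and listed at 0 elsewhere, beside Trav12n-1, listed at 0 in all libraries. Their V exons are identical over 295 bases, as the last 90 show (chr14:52844952-52845041 and chr14:53155999-53156088, plus strand, GRCm38, with no base in capitals because none differs).
Trav12d-1: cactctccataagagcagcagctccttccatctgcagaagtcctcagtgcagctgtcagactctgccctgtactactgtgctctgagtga
Trav12n-1: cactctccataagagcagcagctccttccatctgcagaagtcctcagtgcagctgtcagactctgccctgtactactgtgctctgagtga
How far the shares of the copies depend on which copies reads can tell apart was not tested. Segments with the letter d held 18.7%, 15.5%, 17.0% and 21.4% of the TRAV sum, in the order Th0 2, Th0+Dopa 2, Th0 3, Th0+Dopa 3, those with n 12.5%, 12.6%, 10.2% and 9.70%, and the rest 68.8%, 71.9%, 72.8% and 68.9%. The 40 segments between the n copies and the J segments held 62.5% to 65.9%.

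**Figure D5:**
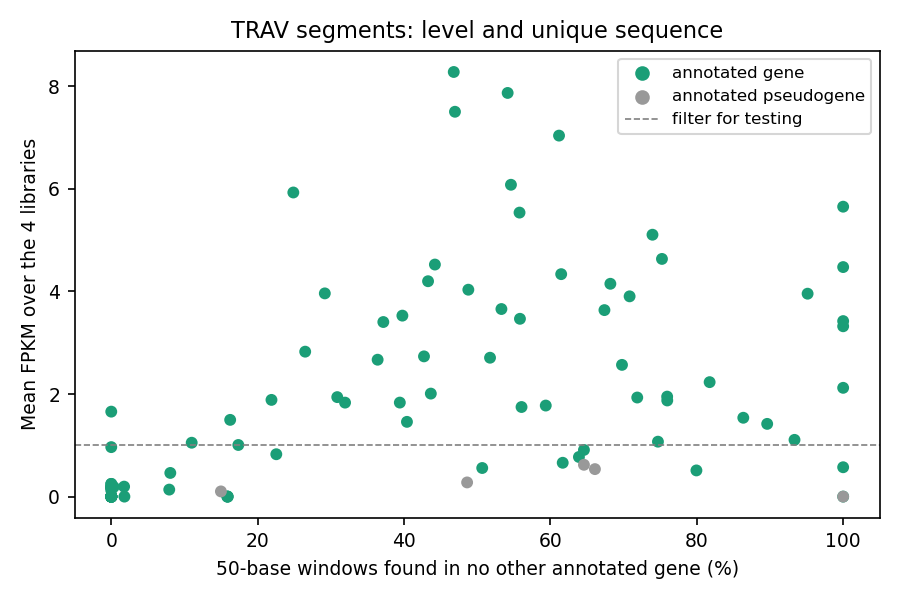
Mean FPKM over the 4 libraries of each of the 103 TRAV segments against the percentage of its 50-base windows found in no other annotated gene; the dashed line is the mean of 1 FPKM needed for testing. Most segments without such windows lie at or near 0, and the highest, Trav4-4-dv10 at 8.28 FPKM, has 46.8%.

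Among the other chains of the receptor complex a single gene passed. The receptor reaches the cell surface with the CD3 chains, of which Cd3d stood at 149 and 134 FPKM in Th0 and 209 and 187 in Th0+Dopa and rose by 0.48 ± 0.10 (limma adjusted p = 0.0398). It was the only one of 6 tested genes of the list of CD3 and receptor assembly genes to pass, beside 6.28% of all tested genes called higher. At that background a single call is no result about the list. Cd3g (0.12 ± 0.12, adjusted p = 0.541), Cd3e (0.26 ± 0.29, adjusted p = 0.597), Cd247 (0.23 ± 0.10, adjusted p = 0.205) and Cd4 (-0.06 ± 0.10, adjusted p = 0.749) did not. Cd3e was far lower per length than the other CD3 chains, at 9.20 and 8.67 FPKM in Th0 against 7.29 and 16.2 in Th0+Dopa.

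Genes that act on TCR transcripts and loci were counted from lists. Of 16 tested factors known to bind the TCR alpha and beta enhancers, 1 rose and 1 fell, with a median of -0.17, beside 6.28% of all tested genes called higher and 4.39% called lower. At that background a single call in each direction is no result about the list. Myb, which acts in thymocyte and progenitor gene programs, stood at 14.8 and 19.8 FPKM in Th0 and 8.19 and 9.90 in Th0+Dopa and fell by 0.86 ± 0.15 (limma adjusted p = 0.0272). Tcf3, which encodes the E proteins E12 and E47, stood at 16.3 and 17.0 against 32.6 and 24.6 FPKM and rose by 0.73 ± 0.16 (adjusted p = 0.0446). Of 14 genes of nonsense-mediated decay, which removes transcripts of out-of-frame rearrangements, 1 fell, with a median of -0.06. That was Upf2, a core factor of this pathway, at 17.3 and 22.4 FPKM in Th0 and 10.8 and 13.4 in Th0+Dopa (-0.67 ± 0.14, adjusted p = 0.0419). Of 7 tested genes of the V(D)J recombination machinery 0 passed in limma (2 at an unadjusted p under 0.05), with a median of -0.25. The recombinase genes Rag1 and Rag2 stayed at or under 0.0901 FPKM in every library.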

How the data were processed

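Per the labels' protocols, total RNA was purified with DNase treatment and sequenced paired-end after ribosomal RNA and globin mRNA depletion with a stranded kit. The deposited values are FPKM, in 2 tables made separately by the authors. Per the submitters' processing notes, the build was mm10 and the tools included STAR 2.4.2 and Cufflinks 2.2.1, beside Trimmomatic 0.35, bcl2fastq 1.8.4 and FastQC 0.10.1. How reads that match several genes were treated, which annotation was used and whether strand was used are not stated there or in the labels, so near-identical copies and overlapping or antisense genes are uncertain.

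Symbols, coordinates, transcript sequences and lengths came from GENCODE M21 on GRCm38 (the mm10 build), which named 36423 of 38282 IDs. Genes with a mean of at least 1 FPKM (11423) were tested with limma 3.58.1 in R 4.3.3 (lmFit, eBayes with trend) on log2(FPKM + 1), two-sided, with the table (which is also the replicate number) as a block and Benjamini-Hochberg adjustment over all tested genes. Genes were called at an adjusted p under 0.05. Each gene has 1 residual degree of freedom, to which the prior adds 4.70. On this scale, changes of low genes come out too small. The procedure was tested on simulated data.

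Usage is a segment's share of its locus's summed FPKM, and no test was made of shares or sums of loci. The depth in fragments was estimated from the spacing of low values of single-transcript genes of 320 to 480 bases, of which 85.5% to 89.6% lay within 0.15 of a whole number in the best of the settings searched (30% by chance for 1 setting), while low values of members did so in 63.3% to 75% of cases. Exact zeros are written as listed at 0.

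Named members are the constant regions, all calls, the 8 highest TRAV and TRBV segments, the 3 largest differences in each direction with the same sign in both tables, Trbv31, the Trbv12 and Trbv13 segments, Trav11 and its copy, and near-identical copies. Of each list, called genes (at most 4) and CD3 chains with Cd4 are named. Trav10 and Trav9 subgroups, Trbv21, Trgv2, Trdv1, Rag1 and Rag2 and genes that check the cell type were named after their values were seen. The members and lists were chosen with earlier results of these data known. The fits were repeated with other pseudocounts, scalings, filters and limma settings, a GC content and length correction, no block, sums by subgroup and each library left out (no block, libraries scaled by the median of ratios).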

Additional observations from a re-analysis of the deposited data

How the results depend on the processing

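The number of members called changed between settings, as did the number of all genes called. Members called higher numbered 1 as reported, 2 with a pseudocount of 0.1, and 0 in fits with libraries scaled to a common sum (with or without small RNA and mitochondrial genes), without the replicate block, without limma's trend and with the GC and length correction. Members called lower numbered 7 as reported, 12 with a common sum and 14 with a common sum that left out small RNA and mitochondrial genes. They numbered 3 with no filter on low values, 3 with segments summed by subgroup, 1 without the replicate block and 1 without the trend. Of all genes, 501 of 11423 were called lower as reported, and 1064 of 11423 and 1256 of 11184 under the common sums. These were 298 of 22356 with no filter, 499 of 11385 by subgroup, 240 without the block and 150 without the trend. All genes called higher numbered 717 as reported, 906 with a pseudocount of 0.1, and 376 and 386 under the common sums. Fits that left out a library had a lone library in a group, assumed to vary like the others. Their calls cannot show whether a result is stable. The member median ranged from -0.22 to -0.021 in these fits and was -0.36 and -0.34 under the common sums, -0.092 with no filter, -0.30 with the GC and length correction and -0.15 by subgroup. All genes shifted too, to a median of -0.20 and -0.18 under the common sums.

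Trac stayed lower in all settings. Its call was lost without the block (-0.70, limma adjusted p = 0.0677) and without the trend (-0.70, adjusted p = 0.105). When a library was left out, the Trac difference ran from -0.81 to -0.60. Trbc1 passed with a pseudocount of 0.1 (0.42, adjusted p = 0.0470), and was 0.16 and 0.19 under the common sums (adjusted p = 0.395 and 0.205) and 0.24 with the GC and length correction (adjusted p = 0.187). Trbc2 passed as lower under the common sums (-0.42, adjusted p = 0.0346, and -0.39, adjusted p = 0.0255) and ran from -0.36 to 0.026 when a library was left out. The summed TRAV difference was -0.72 and -0.70 under the common sums, and the TRBV one -0.18 and -0.15. On shares of FPKM times length, Trbv13 held 15.7% in Th0 and 18.8% in Th0+Dopa, and Trbv13-2 held 8.62% and 10.03%. The Trav10 share in Th0+Dopa was 2.07% over segments with a mean of at least 1 FPKM. Table and replicate number are the same grouping in these data. The deviations of same-numbered libraries had a correlation of 0.0869, so libraries of the same table shared little. This value therefore gives no support for the block. With the block left out, 1 of the 8 calls passed, and that fit gave 256 higher and 240 lower genes.

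Among segments without a call, the direction turned in some fits that left out a library: Trav13-1 from -0.38 to 0.17, Trav5-4 from -0.78 to 0.62, Trav7-4 from -0.59 to 0.27, Trbv12-1 from -0.87 to 0.42, Trbv12-2 from -0.26 to 0.39, Trbv19 from -0.017 to 0.48, Trbv3 from -0.24 to 0.0395, Trbv31 from -0.39 to 0.13, Trbv5 from -0.37 to 0.23. Under the common sums Trbv12-2 was at -0.17 and -0.14, against 0.065 as reported, and Trbv19 at -0.021 under the first, against 0.23. With the GC and length correction Trbv12-2 was at -0.023. Of the 8 calls, 8 held with a pseudocount of 0.1 or 0.5, 7 under each common sum and with the GC and length correction, and 3 with no filter on low values. The cause of these changes was not tested.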

Other observations

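Genes of other T cell receptors were near the limit of these data. Of 10 genes of the gamma and delta chains with a row, 6 were listed at 0 in all libraries, and the 10 summed to 3.78 and 7.79 FPKM in the Th0 libraries and 2.97 and 6.74 in the Th0+Dopa libraries. Trgv2, a gamma V segment, was at 2.73 and 2.71 FPKM in Th0 and 2.97 and 4.35 in Th0+Dopa (0.31 ± 0.25, limma adjusted p = 0.482). Trdv1, a delta V segment inside the alpha locus, was at 1.04 and 4.16 FPKM in Th0, listed at 0 in Th0+Dopa 2 and at 1.64 in Th0+Dopa 3 (-0.998 ± 0.31, limma adjusted p = 0.107). The 9 TRAV segments whose names carry dv, which can join either chain, held 19.4% and 19.8% of the TRAV sum in Th0 and 13.1% and 18.7% in Th0+Dopa.

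The invariant natural killer T cell receptor uses Trav11 with Traj18. Trav11 was at 0.706 FPKM and its copy Trav11d at 0.656 in Th0 2, and both were listed at 0 in the other libraries. Their V exons are identical over 290 bases. Zbtb16, the factor that defines these cells, stayed at or under 0.431 FPKM. All 75 J and D segments of the alpha and beta loci with a row, Traj18 among them, were listed at 0 in every library. Since each rearranged chain carries a J segment, these zeros cannot show which J segments were used. How many invariant natural killer T cells were present cannot be told from these values. The V segments Trav18 and Trav20 were also listed at 0 in every library.

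Markers of other lymphocytes gave no call, and most were low, apart from Ighm at 12.5 to 19.9 FPKM. Of 223 B cell genes with a row, 179 were listed at 0 in all libraries and 5 were tested, of which 0 passed in limma (1 at an unadjusted p under 0.05), and they summed to 23.3 and 45.0 FPKM in Th0 against 30.9 and 39.8 in Th0+Dopa. Of 10 CD8, natural killer and innate lymphoid markers, 2 were tested and 0 passed in limma (1 at an unadjusted p under 0.05), with sums of 7.69 and 9.90 against 8.38 and 7.68 FPKM.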
